A study of Homo sapiens with 9 samples.

Results

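The miR-17 seed family guide strands are 6 mature microRNAs (miRNAs) that share the same bases at positions 2 to 8 from their 5′ end, the seed with which an miRNA recognises its targets. Members were taken by name from the count table, as hsa-miR-17-5p, hsa-miR-20a-5p, hsa-miR-20b-5p, hsa-miR-93-5p, hsa-miR-106a-5p and hsa-miR-106b-5p, 6 of the 2652 miRNA names in it. All 6 passed the filter on low counts, which left 408 names for testing. In the study, miRNAs of ES-2 cells, an established line derived from an ovarian cancer, were trapped with miTRAP, in which an in vitro transcribed bait RNA is tethered through its MS2 loops to amylose resin, by a fusion of MS2-binding protein and maltose-binding protein, and is incubated with cell extract. Small RNA was sequenced from the extract itself (input), from the trap with an RNA holding only the MS2 loops (MS2 control) and from the trap with the 3′UTR of PD-L1 (PD-L1 3'UTR), with 3 libraries each. All 9 libraries came from untreated cells of wild-type genotype (WT in the labels), so the groups differ in the RNA trapped and not in the cells. PD-L1, encoded by CD274, is the surface ligand through which tumour cells restrain T cells, and the comparisons ask which miRNAs of the extract are recovered on its 3′UTR. Per the study's methods many times more of the 3′UTR bait than of the MS2 bait was immobilised, by molar amount. Bait sequence and bait amount therefore cannot be told apart in any comparison of the traps with each other.

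An miRNA guides Argonaute proteins to mRNAs whose 3′UTR holds a match to its seed, which lowers the stability and translation of those mRNAs. The miR-17 family is known for promoting proliferation and is often abundant in tumours. It is spread over 3 clusters, miR-17-92 (the MIR17HG transcript), its paralog miR-106a-363 on the X chromosome and miR-106b-25 within the MCM7 gene, each of which is transcribed as a joint precursor and cut into separate hairpins. Each hairpin gives a 5p and a 3p arm. The 5p arms described here are the strands usually loaded as guides.

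The 6 mature sequences (RefSeq, GRCh38.p14) are shown because their shared seed defines the family and the bases outside it are all that tells the members apart, with the seed in capitals.
hsa-miR-17-5p: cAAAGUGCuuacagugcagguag
hsa-miR-20a-5p: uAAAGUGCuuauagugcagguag
hsa-miR-20b-5p: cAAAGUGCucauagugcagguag
hsa-miR-93-5p: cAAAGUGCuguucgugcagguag
hsa-miR-106a-5p: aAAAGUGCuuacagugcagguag
hsa-miR-106b-5p: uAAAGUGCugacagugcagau

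Outside the seed the members differed at 1 to 5 bases, counted from 1 at the 5′ end over the bases that both have. hsa-miR-106a-5p differs from hsa-miR-17-5p only by C1A, and hsa-miR-20b-5p differs from hsa-miR-20a-5p by U1C and U10C. These pairs are encoded on different chromosomes, so reads of the X-linked member of each pair are told from those of its near copy on chromosome 13 by 1 or 2 bases, and their counts are uncertain to that extent. hsa-miR-93-5p stood farthest from the others, at 3 to 5 bases, and hsa-miR-106b-5p is the shortest member, with 21 bases against 23.

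On GRCh38.p14, hsa-miR-17-5p lies at chr13:91350618-91350640 and hsa-miR-20a-5p at chr13:91351072-91351094 on the plus strand, 454 bases apart by their starts and both inside the lncRNA gene MIR17HG. hsa-miR-106a-5p (chrX:134170244-134170266) and hsa-miR-20b-5p (chrX:134169850-134169872) lie on the minus strand inside the lncRNA gene MIR106AHG. hsa-miR-93-5p (chr7:100093815-100093837) and hsa-miR-106b-5p (chr7:100094043-100094063) lie on the minus strand inside MCM7, which encodes a subunit of the replicative helicase. In GENCODE on GRCh37 the MIR106B hairpin is intronic in MCM7, and the MIR93 hairpin overlaps an exon of a nonsense-mediated decay transcript of MCM7 and no exon of its coding transcripts.

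The 3′UTR of CD274 (transcript CD274-202, exon 7, 2692 bases) holds 1 match to the whole seed followed by A, an 8mer. It lies at bases 2496 to 2503 of the 3′UTR, on GRCh37 chr9:5470358-5470365 on the plus strand, 189 bases before its end. The shorter match CACTTT occurs 3 times in the 3′UTR, the 8mer included, and pairing was described at the 8mer only. The 8mer site is shown in capitals within a window of 30 bases (chr9:5470339-5470368) that holds the bases the guide strands would lie against.
CD274 3′UTR site: gtggtgttggatttgtaagGCACTTTAtcc

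The letters GCACTTTA, read on the transcript strand only, occur in 7.38% of the first 2692 bases of 4581 coding transcripts' 3′UTRs of at least that length, and the shorter GCACTTT, which is part of them, in 36.6%. Bases 2 to 8 of all 6 members pair with this site. Base 1 pairs as well in hsa-miR-20a-5p and hsa-miR-106b-5p only. Opposite the window without a bulge, 0 to 2 bases past the seed form Watson-Crick pairs in each member, the fewest in hsa-miR-20b-5p and the most in hsa-miR-93-5p. A match of letters is a description, and how much of the 3′UTR the bait covered was not analysed here.

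Between 672824 and 5983577 counts were obtained per library, the fewest in a PD-L1 3'UTR library and the most in the input. Levels are given as CPM, counts relative to the library size scaled by edgeR's TMM factors (trimmed mean of M values). A floor of 3 counts was worth 0.676 to 4.02 CPM. Since a read spans a whole miRNA, levels were compared between members without a length correction. How evenly the library preparation recovers different members was not tested, so ratios of levels are ratios of counts and not of molecules. Replicates differed beyond sampling noise in every group, with the library numbered 1 farthest from the others (chi-square per degree of freedom of 93.8 to 156 in pairs that hold it, against 8.60 to 30.5 in pairs that do not). The PD-L1 3'UTR library numbered 1 also held 3750 CPM of 16 miRNAs that mark blood, epithelial, liver, muscle and nerve cells, with 1 of them at 0. Those markers summed to 754 and 610 CPM in the other PD-L1 3'UTR libraries, 473 to 621 CPM in the MS2 control and 244 to 329 CPM in the input. In the input 3 of the 16 were at 0 in every library (miR-429, miR-124-3p and miR-133a-3p). The highest means there were 126 CPM of miR-142-5p, 93.8 CPM of miR-142-3p (both blood) and 41.3 CPM of miR-200c-3p (epithelial). In the PD-L1 3'UTR library numbered 1 the largest amounts were of miR-1-3p (1433 CPM, muscle), miR-451a (736 CPM, blood), miR-142-5p (459 CPM) and miR-206 (332 CPM, muscle). The part of the 16 markers in the results was not tested. A bulk library does not tell which cells the counts of a marker came from. Nothing in the labels says that libraries of a group came from separate cultures, so the p-values measure the spread between these libraries.

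The family was a small part of the extract, a smaller part of the control trap and a large part of the PD-L1 trap, with means of 1.10 ± 0.11%, 0.218 ± 0.012% and 17.2 ± 2.3% of the counts of a library (SD, n = 3). In the input it held 0.981%, 1.18% and 1.15% of the counts of the 3 libraries. It fell to 0.214%, 0.231% and 0.207% in the MS2 control. On the PD-L1 3'UTR it held 14.7%, 19.3% and 17.5%. Every PD-L1 3'UTR library lay above every other library, and every MS2 control library lay below every input library. On the scaled level the 6 members summed to 14547 ± 1295 CPM in the input, to 1862 ± 170 CPM on the MS2 control RNA and to 153190 ± 22858 CPM on the PD-L1 3'UTR (SD, n = 3). The log2 difference of the sums was 6.36 against the MS2 control, an 81.9-fold difference, 3.39 against the input, a 10.5-fold difference, and -2.97 between the MS2 control and the input. Each of these 3 differences gave p = 0.1 in a two-sided exact permutation test, the smallest that 3 libraries against 3 allow. Without the PD-L1 3'UTR library numbered 1 the differences of that group were 6.47 and 3.51.

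All 6 members were higher on the PD-L1 3'UTR than in the MS2 control, where 31.4% of the 408 tested miRNAs were called higher and 28.7% lower (edgeR quasi-likelihood test, Benjamini-Hochberg adjusted p under 0.05 over all 408). All 6 were also higher than in the input, against 34.1% called higher and 32.4% called lower. All 6 fell from the input to the MS2 control, against 37% called lower and 32.8% called higher. Of the 408 miRNAs, 77 were higher on the PD-L1 3'UTR than in both other groups, the 6 members among them. The median difference of the members was 6.43 on the log2 scale against the MS2 control, 3.81 against the input and -2.18 between the MS2 control and the input, beside 0.017, 0.036 and 0.023 over all tested miRNAs. With only the libraries numbered 2 and 3 (a fit added after values were seen), all 6 members kept their calls in the 3 comparisons, with 5.44 to 7.75 on the log2 scale against the MS2 control. The study chose this family on these libraries, so the shared direction is not independent evidence. The 3 comparisons share their libraries, since each group enters 2 of them.

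**Figure D1:**
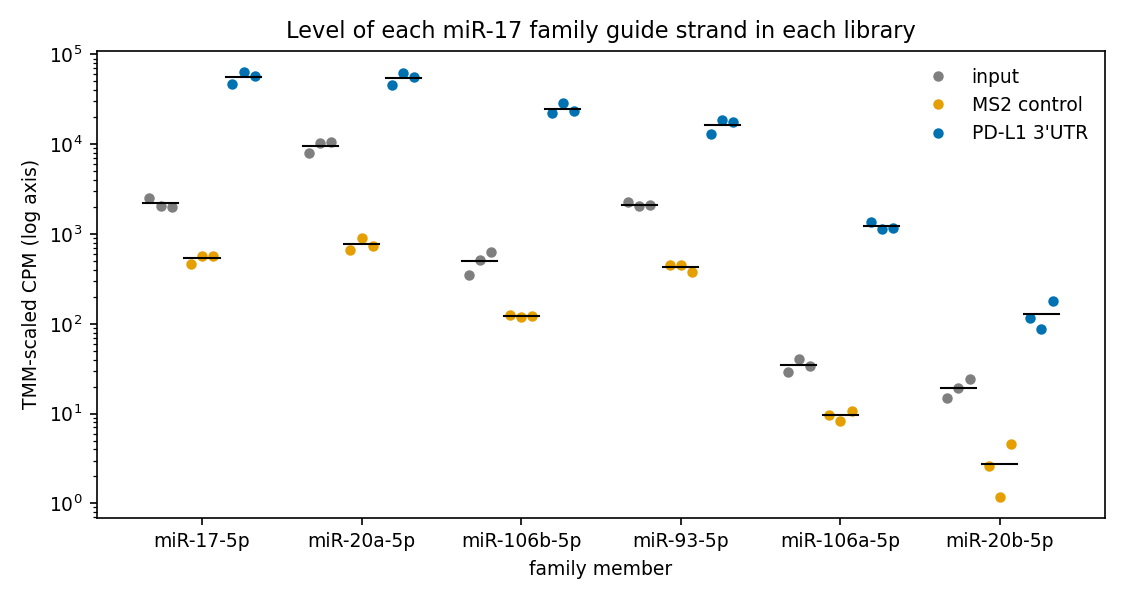
TMM-scaled CPM (log axis) of each family member in each library, with points for the 3 libraries of the input, the MS2 control and the PD-L1 3'UTR and a line for their mean. In every member the PD-L1 3'UTR points lie highest and the MS2 control points lowest, with no overlap between groups.

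miR-106b-5p, a product of the MCM7 intron, had the largest difference of the family. Its level was 353, 510 and 630 CPM in the input. It was 125, 119 and 123 CPM in the MS2 control, where the coefficient of variation was 2.23%. It was 22371, 28815 and 23581 CPM on the PD-L1 3'UTR, and the groups did not overlap. Against the MS2 control it rose by 7.67 ± 0.25 on the log2 scale (SE, edgeR adjusted p = 1.9e-09), which is 204-fold and the 3rd largest difference of the 408 miRNAs. Against the input it rose by 5.65 ± 0.23 (edgeR adjusted p = 2.1e-08), 50.1-fold. It moved from rank 85 to 99 among the miRNAs of an input library to rank 8 or 9 of a PD-L1 3'UTR library.

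miR-106a-5p, of the X-linked cluster, came next although it was scarce. It held 29.2, 40.8 and 34.0 CPM in the input and, among the traps, 9.70, 8.33 and 10.6 CPM on the MS2 control RNA and 1357, 1142 and 1167 CPM on the PD-L1 3'UTR. The MS2 control values rest on 15, 21 and 14 counts. The groups did not overlap. It rose by 7.01 ± 0.22 on the log2 scale against the MS2 control (edgeR adjusted p = 1.9e-09) and by 5.14 ± 0.20 against the input (edgeR adjusted p = 1.5e-08).

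miR-17-5p, the member for which the family is named, was the most abundant in the PD-L1 3'UTR libraries. Its level was 2511, 2063 and 2026 CPM in the input and 469, 566 and 571 CPM in the MS2 control. On the PD-L1 3'UTR it was 46343, 63812 and 58031 CPM, and it was the miRNA with the 3rd most counts in each of the 3 libraries. Here too the groups did not overlap. The difference was 6.71 ± 0.19 on the log2 scale against the MS2 control (edgeR adjusted p = 1.9e-09), 105-fold, and 4.67 ± 0.17 against the input (edgeR adjusted p = 1.5e-08), 25.5-fold.

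miR-20a-5p, encoded next to miR-17-5p, was the most abundant member in the input and the one that fell most in the MS2 control. It held 7910, 10416 and 10689 CPM in the input. It dropped to 662, 901 and 732 CPM in the MS2 control. On the PD-L1 3'UTR it held 45913, 61908 and 55655 CPM, the 4th most counts of each library. Between the MS2 control and the input its difference was -3.66 ± 0.19 on the log2 scale (edgeR adjusted p = 1.1e-07), 12.6-fold lower. Against the MS2 control it rose by 6.15 ± 0.21 (edgeR adjusted p = 1.9e-09), and against the input by 2.49 ± 0.18 (edgeR adjusted p = 7.9e-07), 5.63-fold, the smallest rise over the input among the members.

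miR-93-5p, the neighbour of miR-106b-5p in MCM7, had 2250, 2043 and 2079 CPM in the input, close to miR-17-5p. The MS2 control libraries held 452, 454 and 375 CPM of it. The PD-L1 3'UTR libraries held 12865, 18613 and 17610 CPM, with no overlap. Its rise over the MS2 control, 5.26 ± 0.18 on the log2 scale (edgeR adjusted p = 1.9e-09) and 38.3-fold, was the smallest of the family and still the 18th largest of the 408 miRNAs.

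miR-20b-5p, the other X-linked member, was the scarcest in every group. It had 15.0, 19.2 and 24.1 CPM in the input and 117, 88.5 and 181 CPM on the PD-L1 3'UTR, and the groups did not overlap. In the MS2 control it rested on 4, 3 and 6 counts, 2.59, 1.19 and 4.54 CPM, of which the middle value is at the floor of 3 counts. Its differences therefore carry the largest errors of the family, 5.64 ± 0.48 on the log2 scale against the MS2 control (edgeR adjusted p = 2.7e-06) and 2.73 ± 0.38 against the input (edgeR adjusted p = 0.00013).

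Between the input and the MS2 control the 4 remaining members had smaller differences than miR-20a-5p and miR-20b-5p, with log2 differences of -1.87 ± 0.19 (miR-106a-5p), -2.03 ± 0.20 (miR-106b-5p), -2.04 ± 0.16 (miR-17-5p) and -2.31 ± 0.16 (miR-93-5p). That of miR-20b-5p was -2.91 ± 0.47. Scaling by library totals, under which the median of all miRNAs stood at 0.60 against the input for the PD-L1 3'UTR and at 0.65 for the MS2 control, moved the split of all calls against the input to 68.1% and 65.7% higher, from 51.3% and 47.0%. All 6 members kept their direction and their call under that scaling.

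The order of the levels on the PD-L1 3'UTR differed from that in the input and the MS2 control. In the input miR-20a-5p stood 4.40-fold above miR-17-5p, whose range overlapped that of miR-93-5p (a ratio of means of 1.04), and miR-106b-5p, miR-106a-5p and miR-20b-5p followed without overlap. In the MS2 control the order was the same, with no neighbours overlapping, and miR-20a-5p stood 1.43-fold above miR-17-5p. On the PD-L1 3'UTR miR-17-5p and miR-20a-5p overlapped in range with a ratio of 1.03, although miR-17-5p was higher in 3 of 3 libraries, and miR-106b-5p stood 1.52-fold above miR-93-5p without overlap.

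Shares of the family's summed counts do not depend on how libraries are scaled. miR-20a-5p supplied 66.2 ± 4.9% of the family in the input, 40.9 ± 2.8% in the MS2 control and 35.6 ± 0.065% on the PD-L1 3'UTR (SD, n = 3). The share of miR-17-5p was 15.3 ± 3.4%, 28.8 ± 2.3% and 36.6 ± 0.61% in the same order. For miR-106b-5p the share was 3.38 ± 0.68%, 6.61 ± 0.73% and 16.3 ± 1.1%. The libraries of the 3 groups did not overlap for any of these members, with miR-17-5p and miR-106b-5p highest and miR-20a-5p lowest in the PD-L1 3'UTR libraries.

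miR-93-5p did not follow the same order, with 14.7 ± 2.2% of the family in the input, 23.0 ± 2.9% in the MS2 control and 10.6 ± 0.65% on the PD-L1 3'UTR, so that its share was highest in the MS2 control and lowest on the PD-L1 3'UTR. miR-106a-5p held 0.238 ± 0.028%, 0.518 ± 0.097% and 0.818 ± 0.21%. miR-20b-5p held 0.133 ± 0.021%, 0.153 ± 0.096% and 0.0857 ± 0.033%, with ranges that overlapped between all groups. Of the 18 tests of a member's share between 2 groups, the 15 of the other members each gave the smallest p an exact permutation test of 3 against 3 libraries allows, 0.1 (adjusted p = 0.12 over the 18), and those of miR-20b-5p gave 0.2 to 0.8.

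**Figure D2:**
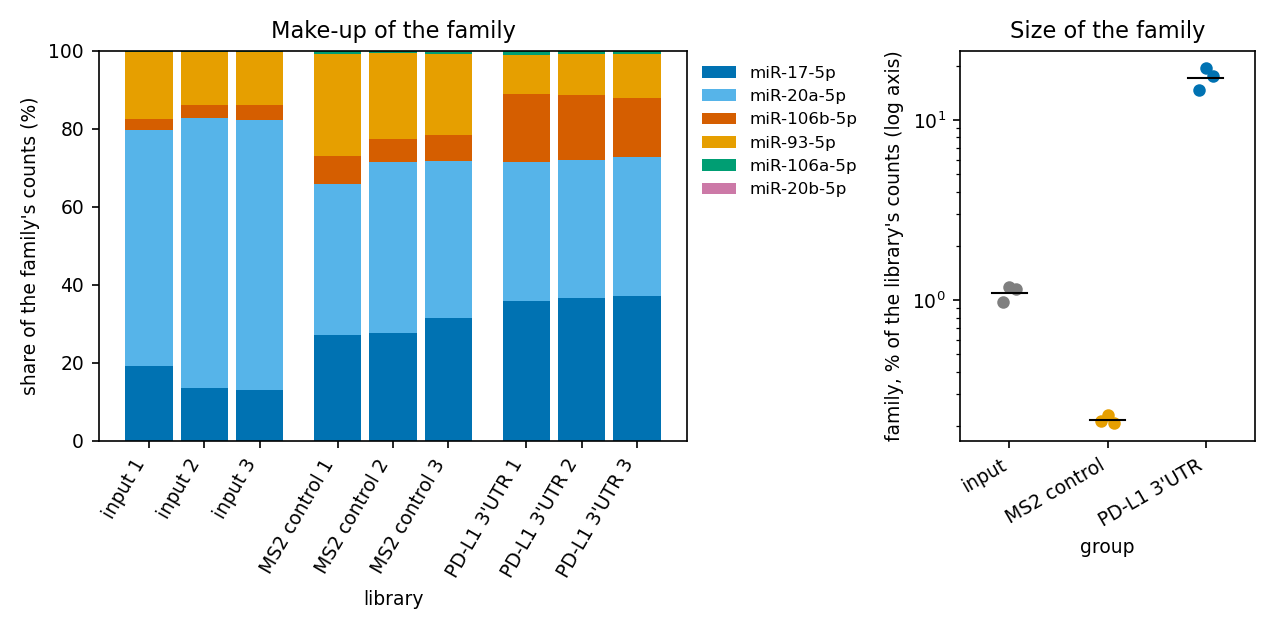
Left, share of the family's counts (%) held by each of the 6 members in each of the 9 libraries, as stacked bars. Right, the family as a percent of each library's counts (log axis), with points for libraries and lines for group means. miR-20a-5p takes 60.5% to 69.04% of the family in the input and 35.5% to 35.6% on the PD-L1 3'UTR, where the family itself reaches 14.7% to 19.3% of a library.

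Shares were also summed by host cluster, where opposite shifts of 2 members of a cluster cancel. miR-17-92 supplied 81.5 ± 1.6% of the family in the input, 69.7 ± 3.4% in the MS2 control and 72.1 ± 0.62% on the PD-L1 3'UTR. miR-106b-25 supplied 18.1 ± 1.6%, 29.6 ± 3.4% and 27.0 ± 0.52%. miR-106a-363 supplied 0.370 ± 0.030%, 0.671 ± 0.19% and 0.904 ± 0.22%. Both traps stood apart from the input without overlap in every cluster, while the 2 traps overlapped for miR-17-92 (difference of 2.44 points) and miR-106a-363 (0.233 points). For miR-106b-25 the traps did not overlap, and the difference was -2.68 points (PD-L1 3'UTR minus MS2 control). In size it was below the SD of 3.38 points within the MS2 control. Leaving out MS2 control replicate 1 brought these differences to -0.729 points for miR-106b-25 and 0.475 points for miR-17-92, and that of miR-106a-363 was 0.130 without MS2 control replicate 2 and 0.113 without PD-L1 3'UTR replicate 1. The exact permutation p was 0.1 for the 7 of 9 tests without overlap and 0.3 for the others.

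The members were next compared with the family as a whole, in the same edgeR fit with each library scaled to its summed counts of the 6 members. The members are part of the sum, which miR-20a-5p dominates in the input. Under this scaling 0.245% of the 408 miRNAs were called higher and 93.9% lower on the PD-L1 3'UTR than in the MS2 control. Against the input the shares were 6.13% higher and 83.6% lower. Between the MS2 control and the input they were 84.8% higher and 3.19% lower.

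Between the MS2 control and the PD-L1 3'UTR, miR-106b-5p alone of the 408 miRNAs passed the test for a larger rise than the family sum. The difference was 1.31 ± 0.20 on the log2 scale (edgeR adjusted p = 3.8e-05). Under TMM scaling miR-106b-5p had the 3rd largest rise of the 408, so larger rises existed that did not pass this test. Its cluster neighbour miR-93-5p rose less than the family, with a difference of -1.11 ± 0.18 (edgeR adjusted p = 4.9e-05). The other 4 members did not pass this test, with values from -0.71 ± 0.59 for miR-20b-5p to 0.68 ± 0.32 for miR-106a-5p (adjusted p from 0.062 to 0.26). Over the input, miR-106b-5p rose more than the family by 2.27 ± 0.20, miR-106a-5p by 1.78 ± 0.31 and miR-17-5p by 1.25 ± 0.18, whereas miR-20a-5p stood at -0.90 ± 0.14 and miR-93-5p at -0.47 ± 0.17 (adjusted p from 4.0e-07 to 0.022). The call for miR-93-5p over the input was lost without the filter on low counts (adjusted p = 0.113), on leaving out input replicate 1 (0.0805), PD-L1 3'UTR replicate 1 (0.0620) or all libraries numbered 1 (0.0970). miR-20b-5p, at -0.63 ± 0.47, was not called.

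Relative to the family sum, 5 members also differed between the MS2 control and the input. Of these, miR-93-5p went the opposite way to its difference between the PD-L1 3'UTR and the input. miR-106a-5p, miR-106b-5p, miR-17-5p and miR-93-5p stood 1.10 ± 0.33, 0.96 ± 0.20, 0.91 ± 0.18 and 0.64 ± 0.17 above the family sum, and miR-20a-5p stood at -0.69 ± 0.14 (edgeR adjusted p from 0.00039 to 0.0074). For miR-20b-5p the difference was 0.08 ± 0.59 and was not called.

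**Figure D3:**
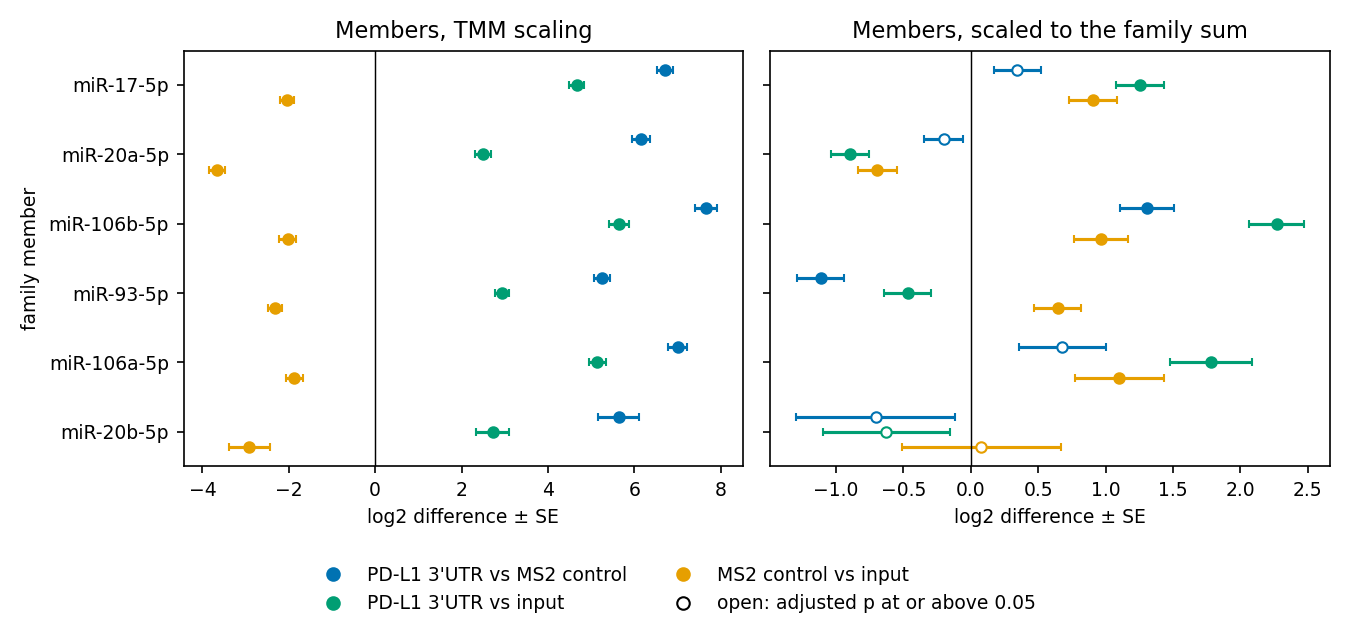
log2 difference with its SE (bars) of each member in the 3 comparisons, on the left with TMM scaling and on the right with each library scaled to the sum of the 6 members, with filled points for edgeR adjusted p under 0.05. On the left all members lie far from 0, and on the right miR-106b-5p lies at 1.31 and miR-93-5p at -1.11 against the MS2 control.

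Ratios between members of a cluster show the same without any scaling. In the input libraries miR-17-5p had 0.317, 0.198 and 0.190 counts for each count of miR-20a-5p. The ratio was 0.708, 0.629 and 0.780 in the MS2 control and 1.01, 1.03 and 1.04 on the PD-L1 3'UTR. It did not overlap between any groups, and its log2 difference was 2.17 from the input to the PD-L1 3'UTR, of which 1.62 lay between the input and the MS2 control.

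In the miR-106b-25 cluster the ratio of miR-106b-5p to miR-93-5p was 0.157, 0.250 and 0.303 in the input. It was 0.276, 0.263 and 0.327 in the MS2 control, a range that overlapped that of the input. On the PD-L1 3'UTR it was 1.74, 1.55 and 1.34, above all others, and the log2 difference to the MS2 control was 2.42, or 5.34-fold. Most of the shift of the miR-17-92 pair thus lay between the input and the MS2 control, and most of that of the miR-106b-25 pair (2.75 in all) between the MS2 control and the PD-L1 3'UTR.

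The near-identical pairs on different chromosomes kept their ratio within its spread. miR-106a-5p to miR-17-5p, which differ by their 5′ base, stood at 0.0161 ± 0.0041 in the input, 0.0180 ± 0.0030 in the MS2 control and 0.0224 ± 0.0060 on the PD-L1 3'UTR (SD, n = 3). miR-20b-5p to miR-20a-5p stood at 0.00200 ± 0.00022, 0.00381 ± 0.0024 and 0.00241 ± 0.00092. All of these ranges overlapped. Over the 12 tests of ratios, the 5 without overlap gave an exact permutation p of 0.1 (adjusted p = 0.24), and the near-identical pairs gave 0.2 to 0.6, which does not show that their ratios were the same.

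**Figure D4:**
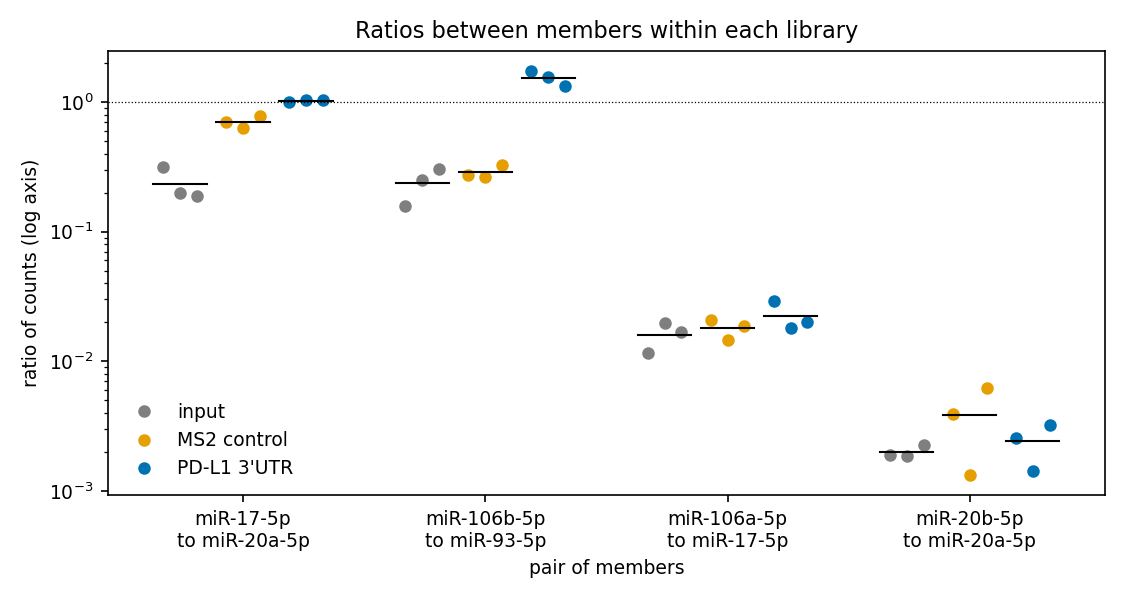
Ratio of counts (log axis) between members of a cluster and between near-identical members, with points for the 9 libraries and lines for group means. The ratio of miR-17-5p to miR-20a-5p lies from 0.190 to 0.317 in the input and from 1.01 to 1.04 on the PD-L1 3'UTR, while those of the near-identical pairs overlap between groups.

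Few counts were listed for the other arms named for the X-linked cluster alone. These 8 arms summed to 0 to 5 counts in the input and MS2 control libraries and to 37, 6 and 12 counts on the PD-L1 3'UTR. Of the latter, 15, 6 and 10 counts were miR-18b-5p, which is close in sequence to miR-18a-5p of chromosome 13. miR-106a-5p and miR-20b-5p together had 168 to 258, 19 to 24 and 917 to 2082 counts in the same groups.

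The opposite arms of the members' own hairpins, added to the description after values were seen, did not share the size of the rise. miR-106b-3p had more counts than miR-106b-5p in all 3 input libraries, with 5p to 3p ratios of 0.420, 0.691 and 0.840. In the MS2 control the ratios were 0.0958, 0.105 and 0.0951, and on the PD-L1 3'UTR they were 23.6, 35.6 and 25.2. The guide strand was thus the minor arm in every input and MS2 control library and the major arm in every PD-L1 3'UTR library. miR-106b-3p itself fell by 0.47 ± 0.13 on the log2 scale against the MS2 control (edgeR adjusted p = 0.010).

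miR-93-3p stood at -0.25 ± 0.59 against the MS2 control and was not called (edgeR adjusted p = 0.74). miR-17-3p rose by 1.58 ± 0.26 (edgeR adjusted p = 0.00034) and miR-20a-3p by 4.35 ± 0.38 (edgeR adjusted p = 2.9e-06), both less than their guide strands. miR-20a-3p also fell by 3.35 ± 0.37 in the MS2 control against the input (edgeR adjusted p = 2.0e-05), next to a difference of -3.66 for miR-20a-5p, on 6, 9 and 2 counts in the MS2 control. The opposite arms of the X-linked members held 0 counts (miR-20b-3p) and 1 count (miR-106a-3p) in all 9 libraries.

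**Figure D5:**
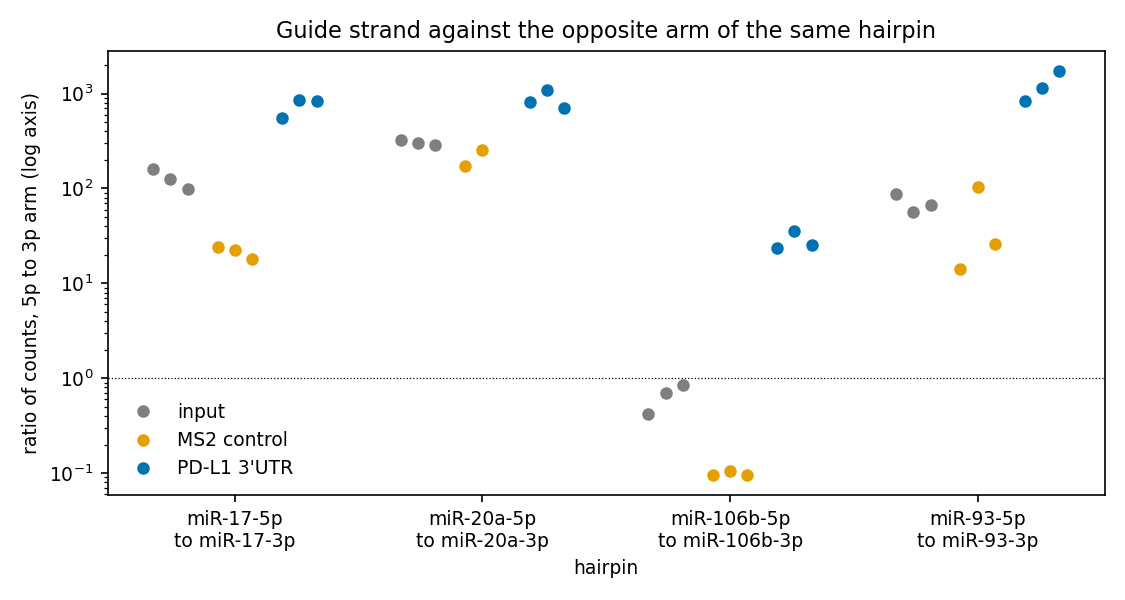
Ratio of the counts of the 5p guide strand to those of the 3p arm of the same hairpin (log axis) in each library. The MS2 control library with 2 counts of miR-20a-3p is left out. The ratio of miR-106b-5p to miR-106b-3p lies below 1 in all input and MS2 control libraries and from 23.6 to 35.6 on the PD-L1 3'UTR.

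The other guide arms of the 3 clusters, which carry different seeds, differed from the family. Of 7 listed, 6 were tested, among them miR-18b-5p, which passed the filter on low counts only through the PD-L1 3'UTR libraries and is left out of the counts that follow. Of the other 5, 4 were higher and 0 lower against the MS2 control, 1 was higher and 1 lower against the input, and between the MS2 control and the input 0 were higher and 3 lower. miR-18a-5p, whose seed differs from that of miR-17-5p, had 60.3 to 63.5 CPM in the input libraries. On the MS2 control RNA it had 37.7 to 42.7 CPM, and on the PD-L1 3'UTR 568 to 715 CPM, a rise of 4.0 ± 0.17 on the log2 scale against the MS2 control (edgeR adjusted p = 1.5e-08). miR-18b-5p had 0 counts in the MS2 control, at most 2 in an input library and 15, 6 and 10 on the PD-L1 3'UTR. Its difference is not given, because it passed the filter only through the latter libraries.

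The remaining cluster guides moved less. miR-19b-3p rose by 2.02 ± 0.24, miR-92a-3p by 0.80 ± 0.13 and miR-19a-3p by 0.60 ± 0.22 on the log2 scale against the MS2 control (edgeR adjusted p from 3.0e-05 to 0.035). miR-92a-3p, the most abundant guide of miR-17-92 in the input, was lower on the PD-L1 3'UTR than in the input, at -0.63 ± 0.13 (edgeR adjusted p = 0.0014). miR-25-3p, which shares the MCM7 transcript with miR-93-5p and miR-106b-5p, stood at -0.19 ± 0.14 against the MS2 control and was not called (edgeR adjusted p = 0.25). The median of the 5 guides other than miR-18b-5p was 0.80 against the MS2 control, 0.25 against the input and -0.61 between the MS2 control and the input.

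Of the 2363 miRNA names matched to a RefSeq mature sequence (371 of the 408 tested), 8 carry the AAAGUGC seed. The 2 that are not members, miR-519d-3p and miR-526b-3p, had 0 counts in all 9 libraries. A further 20 listed miRNAs hold AAGUGC at bases 1 to 6 or 2 to 7, as the miR-302 group does, and 3 of them were detected and 0 tested, among them miR-302b-3p with 18 counts, all in PD-L1 3'UTR replicate 3, beside 1 in the input. Of 12 miRNAs with AAAGUGC elsewhere, 1 was tested. This was miR-590-5p, with 5, 36 and 74 counts summed over the input, MS2 control and PD-L1 3'UTR libraries. It would not have passed the filter on low counts without the PD-L1 3'UTR libraries, so its difference is not given.

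The miRNAs whose level over the 9 libraries was most like the family's summed level, by Pearson's r of log2(CPM + 1), were miR-629-5p (r = 0.993), miR-12136 (0.993), miR-424-5p (0.988), miR-454-3p (0.987) and miR-708-5p (0.986). The 9 points share libraries and fall into 3 groups, so r mostly reflects the order of the groups. Of the 402 other tested miRNAs 34 had r over 0.9, and the median was -0.004. miR-454-3p came closest in size, with 210 ± 21 CPM in the input libraries, 15.5 ± 5.1 CPM on the MS2 control RNA and 1396 ± 209 CPM on the PD-L1 3'UTR (SD, n = 3), a rise of 6.49 ± 0.27 on the log2 scale against the MS2 control. The other 4 rose by 2.63 to 3.76, less than any member.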

How the data were processed

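The 9 small RNA libraries (ES-2 cells, single-end reads), 3 of each group, were assigned to the input, MS2 control and PD-L1 3'UTR by their sample titles. The deposited table holds raw counts per mature miRNA locus. Per the methods and the labels' processing notes, the authors used Cutadapt 1.18 for trimming, Bowtie2 2.2.6 for alignment and featureCounts 1.6.3 with miRBase V22 for counting. The notes name hg38, and the methods name 2 builds. How reads matching several loci were counted is not given in the sources used here, so near-identical members may exchange reads. Loci of a name were summed, and each member has 1 locus.

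Counts were fitted in edgeR 4.0.16 (R 4.3.3) with filterByExpr, TMM factors and 3 group means over all 9 libraries (glmQLFit, glmQLFTest, two-sided). Calls were made at a Benjamini-Hochberg adjusted p under 0.05. The standard error is the log2 difference divided by the square root of F. A second fit scaled libraries to the summed counts of the 6 members. Sums, shares and ratios were tested by exact permutation (scipy 1.17.1). The tests of ratios, the opposite arms and the fit without the libraries numbered 1 were added after values were seen. Floors of 3 counts cover counting error only, since PCR copies are not independent molecules. The procedure was tested on simulated data. The CD274 site was read from GENCODE v44 lifted to GRCh37, and its coordinates were not mixed with those on GRCh38.

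The named miRNAs are the 6 members, the other cluster guides, miRNAs sharing the seed letters and the 5 others most correlated with the family sum. Members and lists were chosen with earlier results of these data known. Alternatives were DESeq2 1.42.0 and its size factors, library totals with and without the members, a 2-fold threshold, edgeR's exact test, a mean of 10 CPM or no filter, a replicate block, fits of only the groups compared, separate loci, robust empirical Bayes and leaving out each library. Separate loci left the members' own counts unchanged. Near-identical members were counted together for shares only, so the calls of members were not tested for reads exchanged between near copies.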

Additional observations from a re-analysis of the deposited data

How the results depend on the processing

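Each member kept its direction and its call in the 3 comparisons under all alternatives tried for them, and so did the counts of members called. Library totals counted without the members gave 4.21 on the log2 scale for the family sum against the input, above 3.39, and library totals gave -2.34 between the MS2 control and the input. The difference of miR-20b-5p between these groups was -3.56 without MS2 control replicate 3. Relative to the family sum, miR-17-5p passed the threshold against the MS2 control with only the groups compared (edgeR adjusted p = 0.0494) and without input replicate 1 (0.0272), and miR-106a-5p without PD-L1 3'UTR replicate 2 (0.0431). The values of miR-20b-5p between the MS2 control and the input were not called and changed sign. Relative to the family sum they ranged from -0.47 to 0.58 when single libraries were left out, below 0 without MS2 control replicate 3, and stood at -0.13 without all libraries numbered 1. As a difference of shares they ranged from -0.028 to 0.068 points. The cause was not tested, and its 3 to 6 counts per MS2 control library limit both. Deviations of same-numbered libraries correlated weakly (-0.18 to 0.13, 1 of 9 over 0.1). Between the traps these correlations were 0.129, 0.067 and 0.099, against -0.117 to 0.026 for unlike numbers. That does not show that the traps were unpaired. With the number as a replicate block the 6 members kept their calls, miR-106b-5p at 7.66 against the MS2 control.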
